A study of Mus musculus with 24 samples.

Results

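Extracellular vesicles (EVs) released by stimulated mouse CD4+ T cells in the presence of dimethyl sulfoxide (DMSO), the vehicle for a small-molecule inhibitor, were set against EVs released by stimulated T cells without it. The comparison took in the libraries titled as DMSO EVs 1 to 3 and stimulated EVs 1 to 3, which are 6 of the 24 small RNA libraries of the series, and every feature counted in them. All cells were CD4+ T cells from the spleen and lymph nodes of C57BL/6 mice. The DMSO cells were stimulated for 3 days with the vehicle present, and the labels give no antibody dose for them. The stimulated cells received 2 µg/ml plate-bound anti-CD3 and 5 µg/ml anti-CD28 for 3 days, with no vehicle named. EVs were taken from the culture medium in both groups, and 3 libraries of each kind of cell served as the matching cellular comparison. EVs of cells given GW4869, an inhibitor of neutral sphingomyelinase, and EVs of cells stimulated for 2 days, expanded for 1 day and rested for 2 days with interleukin-2 are quoted beside some results. The labels do not say whether replicates came from separate mice or cultures, so the p-values measure only the spread between libraries.

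A vehicle control differs from its untreated counterpart by the solvent, yet here the 2 sets of libraries also differ in how their counts were tabulated. Each deposited file held 4408 features after 33 repeated lines were dropped, and 5 gene names stood on several lines that had not been merged. For Flt3l, both lines of each DMSO library held the same value (122, 127 and 113 CPM, counts per 1000000 counts of the library, in the DMSO EVs), whereas the 2 lines of each stimulated library differed (127, 124 and 127 CPM on one, 10.2, 11.6 and 6.9 CPM on the other). For Pik3c2g the pattern was the reverse, with 142, 101 and 138 CPM on one line and 100, 67.7 and 106 CPM on the other in the DMSO EVs, against 72.2, 75.1 and 90.4 CPM on both lines in the stimulated EVs. The GW4869 libraries followed the pattern of the DMSO libraries and the resting libraries that of the stimulated libraries, as a table of the first pair joined by name to a table of the second pair would give. The vehicle, the unstated stimulus and the separate tabulation cannot be told apart in any value below.

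T cells release EVs that carry short RNAs, among them microRNAs (miRNAs), which guide repression of messenger RNAs through a short seed at their 5′ end, and fragments of transfer RNAs (tRNAs). A tRNA cut in its anticodon loop gives a long 5′ fragment and a long 3′ fragment, and shorter fragments come from either end of the molecule. Small RNA libraries also hold pieces of ribosomal RNA (rRNA), of the small nucleolar RNAs (snoRNAs) that guide rRNA modification and processing, of the Y RNAs and vault RNAs of cytoplasmic ribonucleoproteins, of mitochondrial RNAs and of long genes. A count for a long gene here is a count of short fragments that aligned within it and is not a measure of its messenger RNA.

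The 3 DMSO EV libraries held 2068951 to 2579407 counts each and the 3 stimulated EV libraries 2202869 to 2731956. DMSO EV replicate 2 stood apart: its log2 CPM correlated across features with those of the other DMSO EV libraries at r = 0.908 and 0.918, against 0.956 between replicates 1 and 3 and 0.96 to 0.975 among the stimulated EV libraries. Values in CPM below were scaled by trimmed mean of M-values (TMM) factors, and folds are log2 differences of DMSO over stimulated with their standard error (SE). A feature was called where the adjusted p of edgeR's quasi-likelihood test, fitted over all 24 libraries, was under 0.05. In bulk libraries such as these, fewer vesicles or cells of a kind and less RNA per vesicle or cell cannot be told apart, and every value is relative to the rest of its library.

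Of 4408 features, 1038 (23.5%) were called between DMSO and stimulated EVs, 601 of them (13.6%) higher and 437 (9.91%) lower in the DMSO EVs. Among the calls, 57.9% were higher in the DMSO EVs. With scaling factors taken from the miRNAs alone, that share was 83.3% (792 higher and 159 lower), and this scaling moved the median of all features by 0.25 on the log2 scale. A fit to the 6 EV libraries by themselves called 197 features higher and 152 lower, and leaving out DMSO EV replicate 2 gave 730 higher and 542 lower. Leaving out stimulated EV replicate 2 gave the fewest calls, 388 higher and 281 lower. With 3 libraries a side, an exact permutation test of a single value cannot give a p below 0.1.

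By class, the libraries of the DMSO EVs held a smaller share of miRNA counts and larger shares of mitochondrial, ribosomal and snoRNA fragments. The miRNAs took 21.5%, 31.1% and 25.9% of all counts in the DMSO EVs and 32.5%, 32.5% and 33.6% in the stimulated EVs. The groups did not overlap, although DMSO EV replicate 2 came close to the stimulated EVs (difference -6.71 percentage points, two-sided exact permutation p = 0.1). The difference was -4.39 percentage points without DMSO EV replicate 1 and -9.16 without DMSO EV replicate 2. Cytoplasmic rRNA features took 9.22%, 9.32% and 8.27% in the DMSO EVs and 7.3%, 7.45% and 7.53% in the stimulated EVs, again without overlap (exact permutation p = 0.1). Long genes that hold no listed small RNA took 44.8%, 26.9% and 37% in the DMSO EVs and 28.5%, 27.9% and 25.2% in the stimulated EVs. Here the groups overlapped, since DMSO EV replicate 2 lay among the stimulated EVs (difference 9.05 percentage points, exact permutation p = 0.3), and the difference was 4.77 without DMSO EV replicate 1 and 13.7 without DMSO EV replicate 2. Nuclear tRNA features as a whole took 2.91%, 3.64% and 3.67% in the DMSO EVs and 3.23%, 3.49% and 3.76% in the stimulated EVs, which overlapped (exact permutation p = 0.8).

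**Figure D1:**
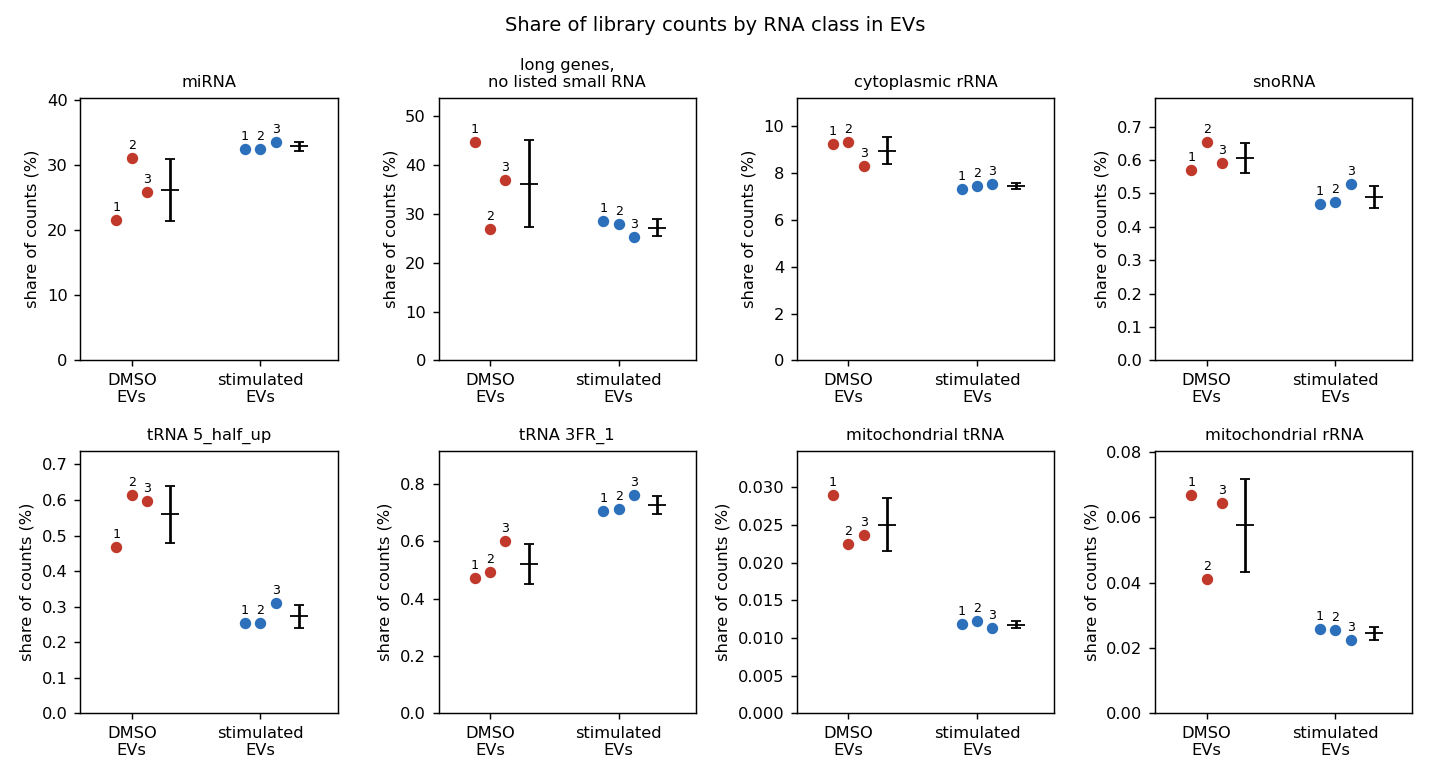
Percent of all counts taken by each class of feature in each library, with a numbered point for each replicate of the DMSO EVs (left) and the stimulated EVs (right) and the mean ± SD beside them. The miRNA share was 21.5% to 31.1% in the DMSO EVs and 32.5% to 33.6% in the stimulated EVs, while the long gene shares overlapped.

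Within the overlapping tRNA totals, the kinds of tRNA fragment moved in opposite directions. The deposited names give each tRNA feature a kind, such as 5_half_up, 3_half_up, 3FR_1 or 5FR_1, which the sources used here do not define. They are taken here, from their names alone, as 5′ and 3′ fragments cut at the anticodon (5_half_up, 3_half_up and 3_half_down) and as shorter fragments of the 3′ and 5′ ends (3FR_1, 3FR_2 and 5FR_1). Many tRNA genes are identical copies, so reads may be counted at several loci and loci are not independent values.

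The 5_half_up fragments were higher in the DMSO EVs. They took 0.467%, 0.615% and 0.597% of all counts in the DMSO EVs and 0.253%, 0.254% and 0.311% in the stimulated EVs (exact permutation p = 0.1). Every DMSO EV library lay above every stimulated EV library. Of the 102 features of the kind 5_half_up, 62 (60.8%) were called higher in the DMSO EVs, against 13.6% over all features, and none lower. Their median log2 fold was 1.06 against 0.03 over all features. With the loci of each anticodon summed, 12 of 17 such sums were called higher and none lower. The fit to the 6 EV libraries alone called 46 of the 102. Their 3′ counterparts, which are far fewer, moved the same way: 5 of 6 features of the kind 3_half_up (median log2 fold 1.1) and 5 of 5 of the kind 3_half_down (0.98) were called higher in the DMSO EVs.

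The calls were spread unevenly over the amino acids of the parent tRNAs. All 15 lysine 5_half_up features (median log2 fold 1.53) and all 8 of initiator methionine (1.62) were called higher in the DMSO EVs, as were 13 of 15 of glutamate (1.59). Aspartate gave 8 of 15, valine 7 of 11 and glycine 10 of 26, with a median log2 fold of 0.71 for glycine. None of the 8 histidine features (median log2 fold 0.45) and none of the 3 proline features (-0.24) was called in the EVs. A test between amino acids was not made.

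Single 5_half_up features of the 3 leading amino acids show the size of the difference. For tRNA-Glu-CTC-1-4, one of the loci for the CTC anticodon of glutamate, this fragment stood at 59.1, 104 and 74.9 CPM in the DMSO EVs and at 22, 17.7 and 22.9 CPM in the stimulated EVs. Even the lowest DMSO library was well above every stimulated library, and the log2 fold was 1.92 (SE 0.24, adjusted p = 2.21e-06). The 5_half_up fragment of tRNA-Lys-TTT-1-5 had 25.8, 37.6 and 28.6 CPM in the DMSO EVs against 9.75, 10.4 and 8.35 CPM in the stimulated EVs, a log2 fold of 1.67 (SE 0.24). For the other lysine anticodon, that of tRNA-Lys-CTT-3-5 had 63.1, 95.2 and 81.2 CPM in the DMSO EVs and 27.2, 24.7 and 36.3 CPM in the stimulated EVs (log2 fold 1.44, SE 0.22). DMSO EV replicate 2, the library that stands apart, was the highest of the DMSO EVs in all 3 of these fragments, and replicates 1 and 3 were still above every stimulated library. The 5_half_up fragment of tRNA-iMet-CAT-1-7, from the initiator tRNA that starts translation, had 26.6, 39.8 and 28.3 CPM in the DMSO EVs and 10, 11.6 and 11.6 CPM in the stimulated EVs (log2 fold 1.5, SE 0.24, adjusted p = 6.77e-05). In the other EVs of the series, mean levels of this fragment were 25.2 CPM with GW4869 and 19.2 CPM at rest.

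**Figure D2:**
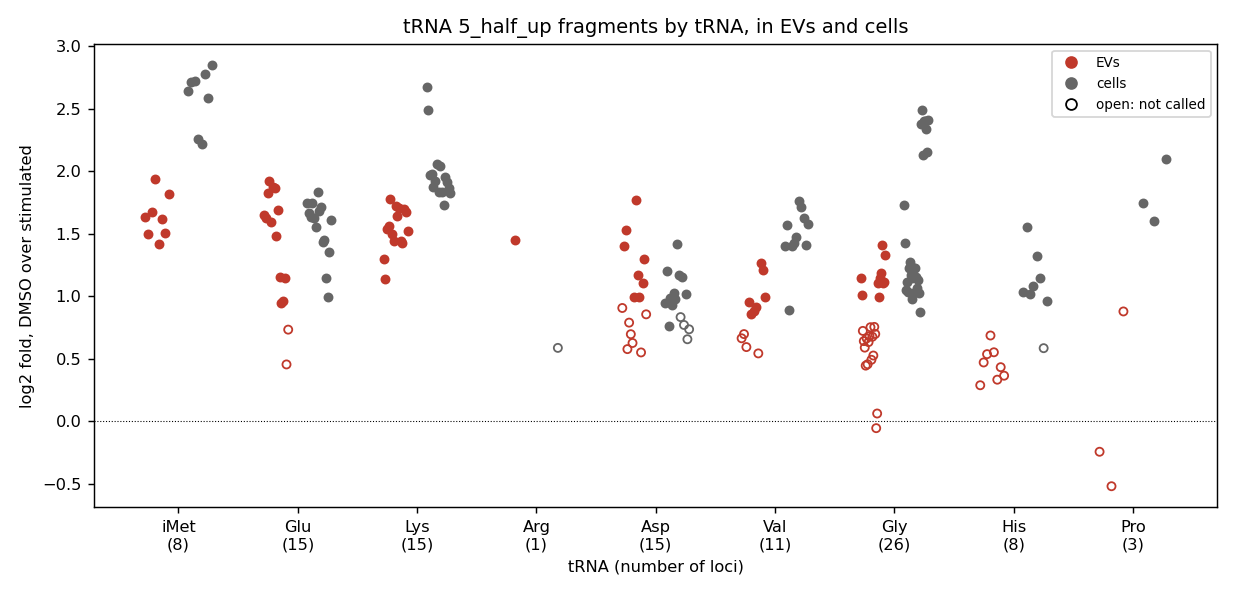
Log2 fold of DMSO over stimulated for each 5_half_up feature, grouped by the amino acid of its tRNA, in EVs (left of each pair) and in cells (right), with filled points for features called by edgeR and open points for the others. All lysine and initiator methionine features were called higher in the DMSO EVs (median log2 fold 1.53 and 1.62), while the 3 proline features were called higher in the DMSO cells and had a median of -0.24 in the EVs.

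The same kind of fragment was also higher in the DMSO cells than in the stimulated cells. In the cells 1279 of 4408 features (29%) were called, 523 (11.9%) higher and 756 (17.2%) lower with DMSO. That split depends on the scaling: 40.9% of the calls in cells were higher in the DMSO cells with TMM, 53.5% with RLE size factors, 30.6% with library totals and 17.7% with factors from the miRNAs. Of the 102 features, 96 were called higher in the DMSO cells (median log2 fold 1.51) and 59 were called higher in both, which is 95.2% of the calls in EVs and 61.5% of those in cells. A test of the difference between the EV and the cell fold called 818 features (18.6%), 572 (13%) with a higher and 246 (5.58%) with a lower fold in EVs, and called 10 of the 102 with a lower fold in EVs. With factors from the miRNAs that difference test called 1112 features with a higher and 69 with a lower fold in EVs. The fragment of tRNA-iMet-CAT-1-7 had a log2 fold of 2.59 in cells, 1.08 more than in EVs (difference -1.08, SE 0.38, adjusted p = 0.0466). The 3 proline features were all called higher in the DMSO cells, with a median log2 fold of 1.74.

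Shorter tRNA fragments were lower in the DMSO EVs wherever a locus was called in the 2 largest of these kinds. The 3FR_1 fragments took 0.472%, 0.492% and 0.601% of all counts in the DMSO EVs and 0.706%, 0.713% and 0.763% in the stimulated EVs, without overlap (exact permutation p = 0.1). Among 207 features, 14 of 22 glycine and 12 of 17 glutamate fragments were called lower. In all, 36 of the 207 (17.4%) were called lower, against 9.91% over all features, and none higher, with a median log2 fold of -0.36. This count was fragile, with 5 calls without DMSO EV replicate 1, 58 without replicate 2, 22 without replicate 3, 18 without stimulated EV replicate 2, 8 without its replicate 3, 1 in the fit to the 6 EV libraries and 3 with factors from the miRNAs. The 5FR_1 fragments took 1.24%, 1.71% and 1.54% of all counts in the DMSO EVs and 1.39%, 1.63% and 1.72% in the stimulated EVs. These shares overlapped (exact permutation p = 0.6). Of the 172 features of the kind 5FR_1, 17 (9.88%) were called lower, near the 9.91% over all features, and none higher. Of these 17, 14 came from leucine tRNAs, out of 23 leucine features (median log2 fold -0.79).

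The 5FR_1 fragment of tRNA-Leu-TAA-2-1 had 15.2, 12.4 and 19.7 CPM in the DMSO EVs and 37, 31.9 and 39.2 CPM in the stimulated EVs. Each DMSO library was well below each stimulated library (log2 fold -1.18, SE 0.33, adjusted p = 0.0121). With the loci of its anticodon summed the log2 fold was -0.36 and was not called (adjusted p = 0.36), nor was it with factors from the miRNAs (-0.88, adjusted p = 0.105). That of tRNA-Leu-CAA-3-1 had 14.9, 22.6 and 11.2 CPM in the DMSO EVs and 29.5, 31 and 39.2 CPM in the stimulated EVs (log2 fold -1.05, SE 0.28), and its call was lost without DMSO EV replicate 3 (-0.84, adjusted p = 0.0539) and in the fit to the 6 EV libraries (0.0585). In the cells 12 of the 23 leucine fragments were called lower with DMSO, and 11 were called lower in both EVs and cells. The leucine count in EVs was 8 without DMSO EV replicate 1, 8 without DMSO EV replicate 3 and 2 in the fit to the 6 EV libraries. The valine fragment tRNA-Val-CAC-3-1 of the kind 3FR_2 had 36.5, 46 and 31.7 CPM in the DMSO EVs and 53, 66.4 and 168 CPM in the stimulated EVs, so the stimulated mean owes much to replicate 3. Its log2 fold was -1.33 in EVs (SE 0.28), -0.65 without that library (adjusted p = 0.0251), and 0.67 in cells, where it was not called, and the difference of -2 was called (SE 0.39, adjusted p = 0.000746).

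Mitochondrial tRNAs are encoded in the mitochondrial genome and serve the translation of its few proteins. They were higher in the DMSO EVs, with a median log2 fold of 1.21. Of the 10 listed, 9 (90%, against 13.6% over all features) were called higher and none lower. Their summed share was small, at 0.029%, 0.0224% and 0.0237% of counts in the DMSO EVs against 0.0118%, 0.0122% and 0.0113% in the stimulated EVs (exact permutation p = 0.1). The lowest DMSO library was well above the highest stimulated library. The sequences of the 2 genes described next are printed because they are the member with the largest fold, chosen after its values were seen, and the most abundant member. They are read in the direction of the tRNA from GRCm38 (annotation GENCODE M21), in lower case throughout since no part is singled out. The gene mt-Te, for glutamate, lies at chrM:14071-14139 on the minus strand, and mt-Tv, for valine, at chrM:1025-1093 on the plus strand.
mt-Te: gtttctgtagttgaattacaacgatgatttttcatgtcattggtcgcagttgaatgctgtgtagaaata
mt-Tv: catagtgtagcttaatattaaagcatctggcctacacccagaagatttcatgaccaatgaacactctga

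The glutamate tRNA mt-Te had 15.7, 13.3 and 9.15 CPM in the DMSO EVs and 2.75, 3.19 and 2.18 CPM in the stimulated EVs. Its log2 fold was 2.19 (SE 0.33, adjusted p = 3.06e-05), on low counts in the stimulated EVs. The valine tRNA mt-Tv had 56.7, 64.2 and 42.9 CPM in the DMSO EVs and 18.5, 23.8 and 26.9 CPM in the stimulated EVs. The groups were well apart, with a log2 fold of 1.24 (SE 0.2, adjusted p = 8.72e-05). The methionine tRNA mt-Tm had 31.9, 30.1 and 24.6 CPM in the DMSO EVs against 15.2, 22 and 12.7 CPM in the stimulated EVs (log2 fold 0.78, SE 0.22), and its call was lost without stimulated EV replicate 1 (adjusted p = 0.0518) or 3 (0.0637) and in the fit to the 6 EV libraries (0.119). In the cells 9 of the 10 were called higher with DMSO, 8 of them the same as in EVs, and for mt-Te the log2 fold in cells was 1.97. Mean levels of mt-Tv were 28 CPM in the GW4869 EVs and 192 CPM in the resting EVs.

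Beside mt-Tv lie the genes of the 2 mitochondrial rRNAs, on either side of it, and both of these were called higher in the DMSO EVs. The small subunit rRNA mt-Rnr1 (chrM:70-1024, plus strand) had 218, 158 and 239 CPM in the DMSO EVs and 90.5, 96.6 and 71.9 CPM in the stimulated EVs, a log2 fold of 1.25 (SE 0.18, adjusted p = 1.39e-05). The large subunit rRNA mt-Rnr2 (chrM:1094-2675, plus strand) had 242, 220 and 183 CPM in the DMSO EVs and 85.7, 88.5 and 106 CPM in the stimulated EVs, a log2 fold of 1.2 (SE 0.16, adjusted p = 4.94e-06). No DMSO library overlapped a stimulated one for either rRNA. Their folds in cells were smaller, at 0.53 and 0.81 on the log2 scale, and for mt-Rnr1 the difference of 0.72 was itself called (SE 0.24, adjusted p = 0.0414). Of the 9 mitochondrial genes other than tRNAs, 4 (44.4%, against 13.6% over all features) were called higher and none lower. All 9 had positive folds (median 0.69). Fragments of mt-Co2, a subunit of cytochrome oxidase, had a log2 fold of 0.97 (SE 0.34, adjusted p = 0.0415) and those of mt-Nd5, a subunit of complex I, one of 0.9 (SE 0.29, adjusted p = 0.0254). The call of mt-Co2 was lost without DMSO EV replicate 1 (adjusted p = 0.176) or 3 (0.0521), without stimulated EV replicate 1 (log2 fold 0.6, adjusted p = 0.246) or 2 (0.0884), with the tRNA loci summed (0.0504) and in the fit to the 6 EV libraries (0.141). That of mt-Nd5 was lost without DMSO EV replicate 2 (0.108), without stimulated EV replicate 1 (0.155) or 2 (0.0579) and in the fit to the 6 EV libraries (0.114).

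Of the 152 snoRNAs, 31 (20.4%) were called higher in the DMSO EVs, against 13.6% over all features, and none lower, against 9.91%. Their median log2 fold was 0.44. They took 0.569%, 0.655% and 0.591% of counts in the DMSO EVs and 0.468%, 0.473% and 0.527% in the stimulated EVs (exact permutation p = 0.1). The count was 20 without stimulated EV replicate 1, 17 without stimulated EV replicate 2 and 12 in the fit to the 6 EV libraries, and without DMSO EV replicate 2 it was 23 higher and 4 lower. With factors from the miRNAs it was 61 higher.

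The U3 snoRNA, which is needed for cleavage of the rRNA precursor rather than for its modification, was among the calls. Rnu3a had 88.1, 165 and 84.9 CPM in the DMSO EVs and 28, 31 and 34.1 CPM in the stimulated EVs. Each DMSO library was well above the highest stimulated library, with DMSO EV replicate 2 the highest by far (log2 fold 1.85, SE 0.27, adjusted p = 2.4e-05). In the cells its log2 fold was 0.39 and was not called, and the difference of 1.46 between EVs and cells was called (SE 0.37, adjusted p = 0.00727). Mean levels were 35.6 CPM in the GW4869 EVs and 44.5 CPM in the resting EVs, close to the stimulated EVs in value. A further 4 U3 copies, Rnu3b1 to Rnu3b4, were called higher with log2 folds of 0.79, 0.94, 0.83 and 0.92, and as near-identical copies they may share reads. The calls of Rnu3b1 and Rnu3b3 were lost without DMSO EV replicate 2 (adjusted p = 0.125 and 0.09) and without stimulated EV replicate 1 (0.107 and 0.0741) or 2 (0.067 and 0.0666), and all 4 were lost in the fit to the 6 EV libraries. Snora73a and Snora73b, copies of the H/ACA snoRNA also known as U17, which likewise acts in rRNA cleavage, were called higher with log2 folds of 0.85 and 0.94. The call of Snora73a was lost without DMSO EV replicate 2 (adjusted p = 0.0519) and without stimulated EV replicate 1 (0.0816) or 2 (0.0646), and both were lost in the fit to the 6 EV libraries. The U3b and Snora73 members were chosen after their values were seen. Gm24949, a snoRNA gene at chr11:96032678-96032892, had 46, 71.7 and 36.9 CPM in the DMSO EVs and 23, 23.5 and 22.5 CPM in the stimulated EVs (log2 fold 1.15, SE 0.27), and was not called in cells (log2 fold -0.17). Gm23201, another snoRNA gene at chr2:167064998-167065086, was called higher with DMSO in both EVs and cells, with log2 folds of 1.04 and 1.74. Gm23927, counted as a snoRNA, had a log2 fold of 1.3 (SE 0.27) in EVs and of 0.04 in cells, where it was not called.

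Rmrp, the RNA of the ribonuclease that processes rRNA and mitochondrial primers, had 96.3, 174 and 103 CPM in the DMSO EVs and 43.7, 47 and 44.6 CPM in the stimulated EVs. The lowest DMSO library was far above the highest stimulated library (log2 fold 1.46, SE 0.22, adjusted p = 3.8e-05), and the RNA was called in cells as well (log2 fold 2.07). It was also chosen after its values were seen.

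Among 68 cytoplasmic rRNA features, 6 (8.82%) were called higher, below the 13.6% over all features, and none lower. Their median log2 fold was 0.44. Without DMSO EV replicate 2 the calls were 4 higher and 2 lower and the median was -0.02, so the sign of the median fold rested on that library. The share of the class stayed higher in the DMSO EVs, by 1.32 to 1.84 percentage points, with any 1 library left out. Gm24601, an rRNA gene at chr6:94826781-94826923, had 400, 142 and 167 CPM in the DMSO EVs and 57, 62.9 and 73.7 CPM in the stimulated EVs, with replicate 1 the highest. Its log2 fold was 1.88 in EVs (SE 0.29, adjusted p = 4.38e-05), 1.26 without that library, and -0.29 in cells, and the difference of 2.16 was called. Copies of the 5S rRNA gene, the small RNA of the large ribosomal subunit that is transcribed apart from the others, were among the calls. The copy n-R5s33 had 250, 371 and 156 CPM in the DMSO EVs and 80.5, 92.5 and 107 CPM in the stimulated EVs (log2 fold 1.47, SE 0.35), and n-R5s185 and n-R5s194 had log2 folds of 1.26 and 1.14. The call of n-R5s194 was lost without DMSO EV replicate 2 (log2 fold 0.74, adjusted p = 0.101), without stimulated EV replicate 1 (0.0592) or 2 (0.0828) and in the fit to the 6 EV libraries (0.058). Reads of near-identical 5S copies may have been split among them. Leaving out long genes that hold a listed small RNA, the most abundant feature of the DMSO EVs was Rn18s-rs5. It averaged 49887 ± 9586 CPM in the DMSO EVs and 41748 ± 3876 CPM in the stimulated EVs (SD, n = 3 each) and was not called.

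No snRNA, Y RNA or vault RNA was called by edgeR. Of the 57 snRNAs, which belong to the spliceosome for the most part, 6 had an unadjusted p under 0.05 and DESeq2 called 0. Without DMSO EV replicate 2, however, 11 snRNAs were called lower. Rny1, the Y1 RNA that binds the Ro protein, had 2288, 4757 and 3106 CPM in the DMSO EVs and 2593, 2900 and 3614 CPM in the stimulated EVs. The DMSO libraries spread over the whole range of the stimulated ones (log2 fold 0.16, SE 0.2, adjusted p = 0.625). Rny3 had a log2 fold of 0.35 (SE 0.21) and the vault RNA Vaultrc5 one of -0.3 (SE 0.31), and for these 3 RNAs together 0 had an unadjusted p under 0.05 and DESeq2 called 0. In the cells, Rny1 and Rny3 were called higher with DMSO, with log2 folds of 0.97 and 0.94.

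**Figure D3:**
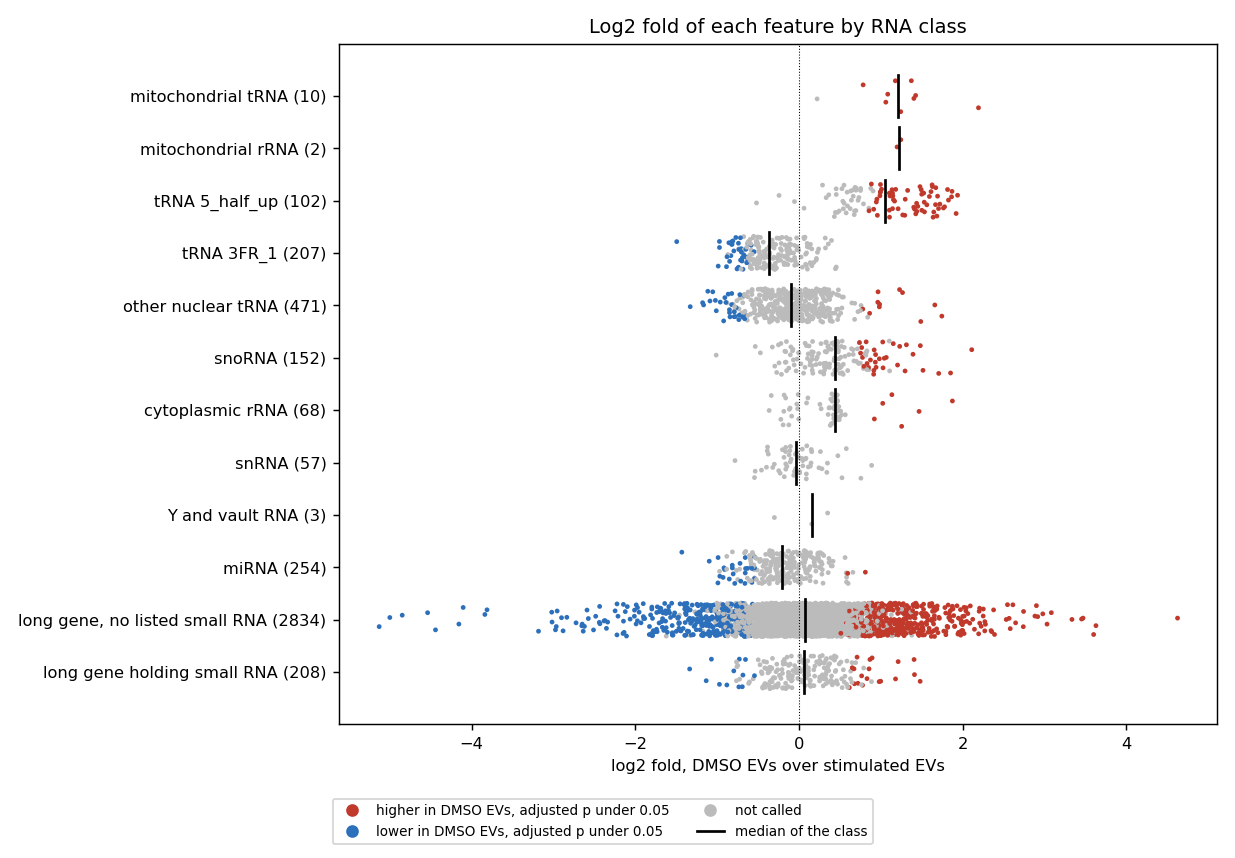
Log2 fold of DMSO over stimulated EVs for every feature, by class, with coloured points for the features called by edgeR and a line at each class median. The 5_half_up fragments, mitochondrial tRNAs and snoRNAs lie above 0 at their medians of 1.06, 1.21 and 0.44, the miRNAs below it at -0.2, and long genes reach from -5.13 to 4.63.

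The miRNAs that were called were mostly lower in the DMSO EVs. Of 254 miRNAs, 26 (10.2%) were called lower in the DMSO EVs and 2 (0.787%) higher, with a median log2 fold of -0.2. Over all features 9.91% were called lower and 13.6% higher, so the share called lower was near that of all features. The count of lower calls depended on single libraries: it was 10 without DMSO EV replicate 1, 81 without DMSO EV replicate 2 and 10 without stimulated EV replicate 3. The fit to the 6 EV libraries alone called 3 lower, and with factors from the miRNAs 12 were lower and 10 higher. The deposited miRNA names give precursors and not arms. The mature sequences below are those of the arm usually taken as the guide, from RefSeq (GRCm38.p6), in which 184 of the 254 names were matched, and the seed (bases 2 to 8) is in capitals. They are shown because the called members include pairs of genes with the same mature sequence, for miR-24 and for miR-26a. The called Mir146b shares its seed with Mir146, which was not called.
mmu-miR-155-5p: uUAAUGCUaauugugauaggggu
mmu-miR-146a-5p: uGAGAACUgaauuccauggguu
mmu-miR-146b-5p: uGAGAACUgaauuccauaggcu
mmu-miR-221-3p: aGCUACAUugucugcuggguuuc
mmu-miR-23a-3p: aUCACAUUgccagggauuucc
mmu-miR-24-3p: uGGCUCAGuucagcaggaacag
mmu-miR-26a-5p: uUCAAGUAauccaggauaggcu
mmu-miR-342-3p: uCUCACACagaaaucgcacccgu
mmu-miR-1983: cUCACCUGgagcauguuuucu
mmu-miR-449a-5p: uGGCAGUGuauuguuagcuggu

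In mouse T cells, miR-155, miR-21, miR-146a, miR-132, miR-221 and others are known to be induced by stimulation. Of 12 such miRNAs listed, all had negative folds, with a median of -0.48 against 0.03 over all features. Part of that shift was shared by the class, since 180 of the 254 miRNAs had negative folds (median -0.2). Outside the large miRNA cluster within Sfmbt2 the median was -0.28. Of the 12, 3 (25%) were called lower in the DMSO EVs, against 9.91% over all features. The share was 10.2% over all miRNAs and 13.4% over those outside that cluster. Whether the 12 differ from other miRNAs was not tested. Mir155 (chr16:84714140-84714204), which is needed for normal T cell responses, had 4207, 6752 and 5073 CPM in the DMSO EVs and 6909, 7596 and 8861 CPM in the stimulated EVs. The groups came within a small step of each other at DMSO EV replicate 2 (log2 fold -0.54, SE 0.17, adjusted p = 0.0237), and the call was lost without DMSO EV replicate 1 (adjusted p = 0.119), without its replicate 3 (0.0757), without stimulated EV replicate 2 (0.0561) or 3 (0.103) and in the fit to the 6 EV libraries (0.144). Mir146b, which shares the seed GAGAACU with miR-146a, had 3.46, 10.6 and 4 CPM in the DMSO EVs and 15.2, 13.6 and 17.4 CPM in the stimulated EVs (log2 fold -1.43, SE 0.36, adjusted p = 0.00509, and -2.03 without DMSO EV replicate 2). Its partner Mir146, at a mean of 1289 CPM in the DMSO EVs and 1885 CPM in the stimulated EVs, had a log2 fold of -0.55 and was not called (SE 0.21, adjusted p = 0.0569). Mir221 had 64.9, 81.5 and 62.1 CPM in the DMSO EVs and 88.5, 102 and 121 CPM in the stimulated EVs (log2 fold -0.58, SE 0.19, adjusted p = 0.03). That call was lost without DMSO EV replicate 1 (adjusted p = 0.0907) or 3 (0.112), without stimulated EV replicate 2 (0.0693) or 3 (0.127), with factors from the miRNAs (0.246) and in the fit to the 6 EV libraries (0.165). Mir21a, the most abundant member, had 10680, 26947 and 8965 CPM in the DMSO EVs and 22273, 24016 and 31948 CPM in the stimulated EVs, with DMSO EV replicate 2 among the stimulated libraries, and was not called (log2 fold -0.75, SE 0.29, adjusted p = 0.0655). Resting EVs averaged 517 CPM of Mir221 and 29.7 CPM of Mir146b, above the 104 and 15.4 CPM of the stimulated EVs. For Mir155 the resting EVs were lower, at 4280 CPM against 7789 CPM.

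The miRNAs linked to resting T cells were not opposite to these. Of 13 listed, 3 (23.1%, against 9.91% over all features) were called lower in the DMSO EVs and none higher. The 3 include both Mir26a genes. The median log2 fold of the 13 was -0.12. Mir342 had 135, 213 and 149 CPM in the DMSO EVs and 295, 290 and 347 CPM in the stimulated EVs, without overlap (log2 fold -0.91, SE 0.19, adjusted p = 0.00132). In cells its log2 fold was -0.08, and the difference of -0.83 was called (SE 0.27, adjusted p = 0.035). Mir26a-1 had 362, 283 and 444 CPM in the DMSO EVs and 561, 541 and 693 CPM in the stimulated EVs, which again did not overlap (log2 fold -0.72, SE 0.2, adjusted p = 0.00909). Its call was lost with factors from the miRNAs (adjusted p = 0.306) and in the fit to the 6 EV libraries (0.0984). The gene Mir26a-2 gives the same mature miR-26a and had nearly the same counts as Mir26a-1, so the pair is 1 observation. As counted, Mir26a-2 lost its call without DMSO EV replicate 2 (adjusted p = 0.0559) or stimulated EV replicate 3 (0.0913). Mir150, a marker of naive lymphocytes, had 1869, 3088 and 2107 CPM in the DMSO EVs and 2594, 2602 and 4126 CPM in the stimulated EVs, which overlapped (log2 fold -0.4, SE 0.22, adjusted p = 0.196). Mean levels of Mir150 were 1287 CPM in the GW4869 EVs and 25703 CPM in the resting EVs.

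The genes of miR-23, miR-27 and miR-24 lie in 2 clusters and are known in T cells to control effector differentiation. They gave 3 lower calls among 6 features (50%, against 9.91% over all features), with a median log2 fold of -0.51. Mir23a (chr8:84208518-84208592) had 699, 1013 and 891 CPM in the DMSO EVs and 1121, 1126 and 1541 CPM in the stimulated EVs (log2 fold -0.54, SE 0.17, adjusted p = 0.02). That call was lost without DMSO EV replicate 1 (adjusted p = 0.103) or stimulated EV replicate 3 (0.135), with factors from the miRNAs (0.202) and in the fit to the 6 EV libraries (0.153). Mir24-1 had 564, 739 and 537 CPM in the DMSO EVs and 908, 928 and 1061 CPM in the stimulated EVs, a log2 fold of -0.66 (SE 0.2, adjusted p = 0.0187). It too lost its call without DMSO EV replicate 1 (adjusted p = 0.0651) or 3 (0.0816), without stimulated EV replicate 3 (0.0658), with factors from the miRNAs (0.0632) and in the fit to the 6 EV libraries (0.0842). Mir24-2 makes the same mature miR-24 and had a log2 fold of -0.57, a call lost without any 1 library other than DMSO EV replicate 2 (adjusted p 0.0646 to 0.172) and by DESeq2 (0.0559). Mir3074-1, named for the same locus as Mir24-1, had the same count as it in each of the 6 libraries.

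Further miRNAs were called. Mir185 stood at 43.4, 45.6 and 48.3 CPM in the DMSO EVs and at 68.2, 87.9 and 103 CPM in the stimulated EVs (log2 fold -0.92, SE 0.18, adjusted p = 0.000597). In the fit to the 6 EV libraries Mir185 (adjusted p = 0.0563), Mir342 (0.0503) and Mir146b (0.0504) were not called. Mir185 was chosen after its values were seen. Mir147 had 10.9, 16.8 and 18.9 CPM in the DMSO EVs and 26.7, 30.2 and 42.8 CPM in the stimulated EVs (log2 fold -1.1, SE 0.28), and Mir674 and Mir365-1 had log2 folds of -0.99 and -0.97. Both lost their call without DMSO EV replicate 1 (adjusted p = 0.0596 and 0.0718), Mir674 also without stimulated EV replicate 3 (0.0641) and with factors from the miRNAs (0.104), and Mir365-1 also without DMSO EV replicate 3 (0.0924) and in the fit to the 6 EV libraries (0.0906). Mir1983 had 58.5, 90.8 and 91.5 CPM in the DMSO EVs and 148, 146 and 183 CPM in the stimulated EVs (log2 fold -0.99, SE 0.19, adjusted p = 0.000432). Its counts ran beside those of the precursor of tRNA-Ile-TAT-2-1, with 220, 205 and 320 reads for the miRNA and 181, 166 and 263 for the precursor in the DMSO EVs, against 592, 503 and 505 and 506, 444 and 448 in the stimulated EVs, so both may be counts of the same reads. The 2 miRNAs called higher were Mir449a, with 30.1, 51.8 and 36.3 CPM in the DMSO EVs and 26.7, 24.4 and 26.5 CPM in the stimulated EVs (log2 fold 0.6, SE 0.2, adjusted p = 0.036), and Mir669d (log2 fold 0.81, SE 0.26, adjusted p = 0.0228). The call of Mir449a was lost without DMSO EV replicate 2 (log2 fold 0.36, adjusted p = 0.176) or 3 (0.0508), without any 1 stimulated EV library (0.0724, 0.116 and 0.0664) and in the fit to the 6 EV libraries (0.184). That of Mir669d was lost without DMSO EV replicate 2 (log2 fold 0.57, adjusted p = 0.101), without stimulated EV replicate 1 (0.0623) or 2 (0.0798) and in the fit to the 6 EV libraries (0.09). Mir669d belongs to the large cluster within Sfmbt2, of which it was the only called member among 60 features. No member of the let-7 (12 features, median log2 fold 0.08), miR-17 to miR-92 (15, -0.13), miR-29 (4, -0.52), miR-30 (7, -0.19), miR-15/16 (7, -0.21) or miR-181 (6, 0.17) families was called.

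**Figure D4:**
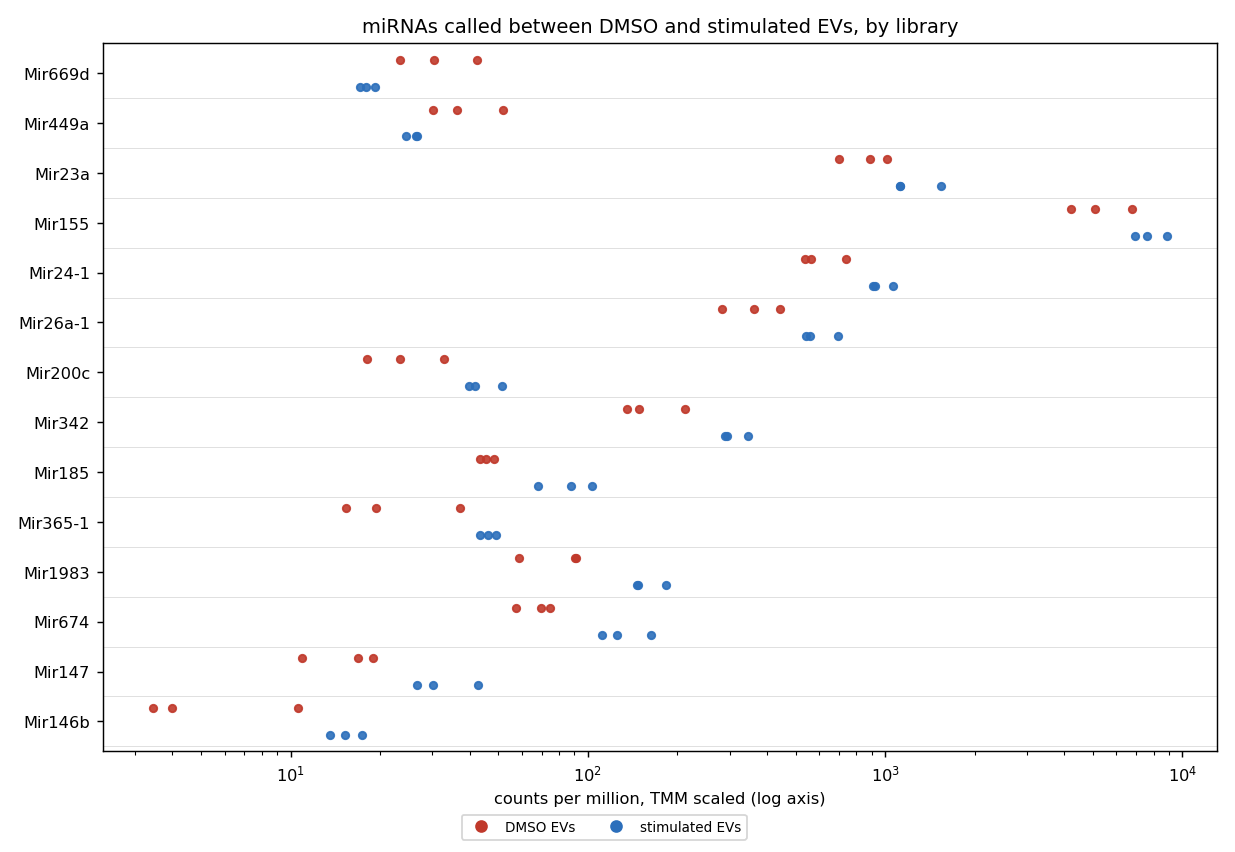
Level of 14 called miRNAs in each library in CPM on a log axis, with a point for each DMSO EV library (upper of each pair) and each stimulated EV library (lower). In Mir669d and Mir449a every DMSO EV library lies right of every stimulated EV library, and in the other miRNAs left of it.

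With TMM scaling the cells did not show the same. There 43 of the 254 miRNAs were called higher and 5 lower with DMSO, against 11.9% and 17.2% over all features. Only 1 miRNA was called lower in both EVs and cells. The test of the difference called 24 miRNAs with a lower and 4 with a higher fold in EVs, against 5.58% and 13% over all features. The median difference of the miRNAs was -0.58. Factors from the miRNAs moved the median of all features by -0.36 in cells and by 0.62 in the difference. The contrast of EVs and cells for miRNAs therefore depends on the scaling. The ratio of tRNA to miRNA counts, which does not depend on the scaling, was -2.93 ± 0.14 on the log2 scale in the DMSO EVs and -3.24 ± 0.09 in the stimulated EVs (SD, n = 3 each, difference 0.3, exact permutation p = 0.1).

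Long genes, which are most of the features, gave most of the calls and the largest folds. Of 2834 long genes that hold no listed small RNA, 456 (16.1%) were called higher and 334 (11.8%) lower in the DMSO EVs. Over all 4408 features these shares were 13.6% and 9.91%. The median log2 fold of the long genes was 0.08. In 315 of the 456 and 304 of the 334 the 2 groups of libraries did not overlap, against 452 of 601 and 403 of 437 over all features. DMSO EV replicate 2 was the lowest DMSO library in 320 of the 456 genes called higher, and stimulated EV replicate 3 the lowest stimulated library in 248 of the 334 called lower. Without DMSO EV replicate 1 the calls were 285 higher and 282 lower, without stimulated EV replicate 2 they were 288 and 216, and in the fit to the 6 EV libraries 117 and 141. The 3 most abundant of the genes called higher took 24.6% of the summed level of all 456 over the 6 EV libraries. Genes called higher had a median length of 142 kb, genes called lower 109 kb and all long genes tested 122 kb, among the 2736 whose length GENCODE gives.

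The largest folds upwards included those of Cntn4, Sorcs2, Pola1 and 6530403H02Rik. Cntn4, the gene of a neuronal adhesion molecule, had 560, 112 and 527 CPM in the DMSO EVs and 38, 29.9 and 40.3 CPM in the stimulated EVs (log2 fold 3.47, SE 0.37, adjusted p = 3.79e-07). Sorcs2, of a sorting receptor, had 1537, 308 and 682 CPM in the DMSO EVs and 108, 114 and 97.6 CPM in the stimulated EVs (log2 fold 2.98, SE 0.35, adjusted p = 1.05e-06). Replicate 2 was lowest for both, and even so above each stimulated library. Sorcs2 was called lower in the DMSO cells (log2 fold -0.94), and its difference of 3.92 between EVs and cells was called. Pola1, of the catalytic subunit of DNA polymerase alpha, had 143, 97 and 625 CPM in the DMSO EVs and 30.2, 22.3 and 26.1 CPM in the stimulated EVs (log2 fold 3.45, SE 0.45). The non-coding gene 6530403H02Rik had the largest positive fold, with 98.7, 62 and 1876 CPM in the DMSO EVs and 39, 20 and 22.9 CPM in the stimulated EVs (log2 fold 4.63, SE 0.91, adjusted p = 0.000636), and it rested on replicate 3: without it the log2 fold was 1.55 and was not called (adjusted p = 0.0637). Mlip, Pkd1l1, A930011G23Rik and Gm44536 had log2 folds of 3.08, 2.92, 3.34 and 3.03, with 29.7 to 239, 27.5 to 180, 248 to 1808 and 35.4 to 195 CPM over the DMSO EVs. Several of these folds were smaller, though still called, with 1 library left out. Without DMSO EV replicate 1 the log2 fold was 2.21 for Sorcs2, 2.23 for Pkd1l1, 2.12 for A930011G23Rik and 2.33 for Gm44536. Without DMSO EV replicate 3 it was 2.19 for Pola1 and 2.4 for Mlip.

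Folds downwards were as large. Tcf7 (chr11:52252371-52283014), the gene of the transcription factor TCF-1 of naive and memory T cells, had 9.05, 1.77 and 3.72 CPM in the DMSO EVs and 164, 225 and 107 CPM in the stimulated EVs. Every stimulated library was far above every DMSO library (log2 fold -5, SE 0.4, adjusted p = 1.85e-09, and -5.81 without DMSO EV replicate 1), on low counts in the DMSO EVs. In cells the log2 fold of Tcf7 was 0.08 (adjusted p = 0.923), and the difference of -5.08 was called (SE 0.61). Tcf7 averaged 6.4 CPM in the GW4869 EVs, which share the tabulation of the DMSO EVs, and 20.3 CPM in the resting EVs, which share that of the stimulated EVs. Mcf2l (chr8:12873806-13020905), of a guanine nucleotide exchange factor, had 33.3, 22.6 and 24.3 CPM in the DMSO EVs and 693, 753 and 429 CPM in the stimulated EVs (log2 fold -4.54, SE 0.25, adjusted p = 2.43e-12), and averaged 25.7 CPM in the GW4869 EVs and 32.8 CPM in the resting EVs. Chd2, of a chromatin remodeller, had 12.8, 12.4 and 10.9 CPM in the DMSO EVs and 201, 229 and 86.4 CPM in the stimulated EVs (log2 fold -3.84, SE 0.32). The overlapping genes Obox1 and Obox3, which are homeobox genes on chromosome 7, had log2 folds of -5.13 and -4.85, and that of Obox1 was -5.76 without DMSO EV replicate 2. Their counts were nearly equal in the stimulated EVs, so they are not separate values. Counts were low in the DMSO EVs, with 11, 17 and 7 reads for Obox1. Vps54, of a complex that tethers vesicles at the Golgi, had 3.46, 2.66 and 2.57 CPM in the DMSO EVs and 73, 82.7 and 38.1 CPM in the stimulated EVs. Its log2 fold was -4.44 (SE 0.36), again on low counts in the DMSO EVs. The non-coding genes 4930525G20Rik and Tbx3os1 had log2 folds of -4.16 and -4.1, the former also on low counts in the DMSO EVs.

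**Figure D5:**
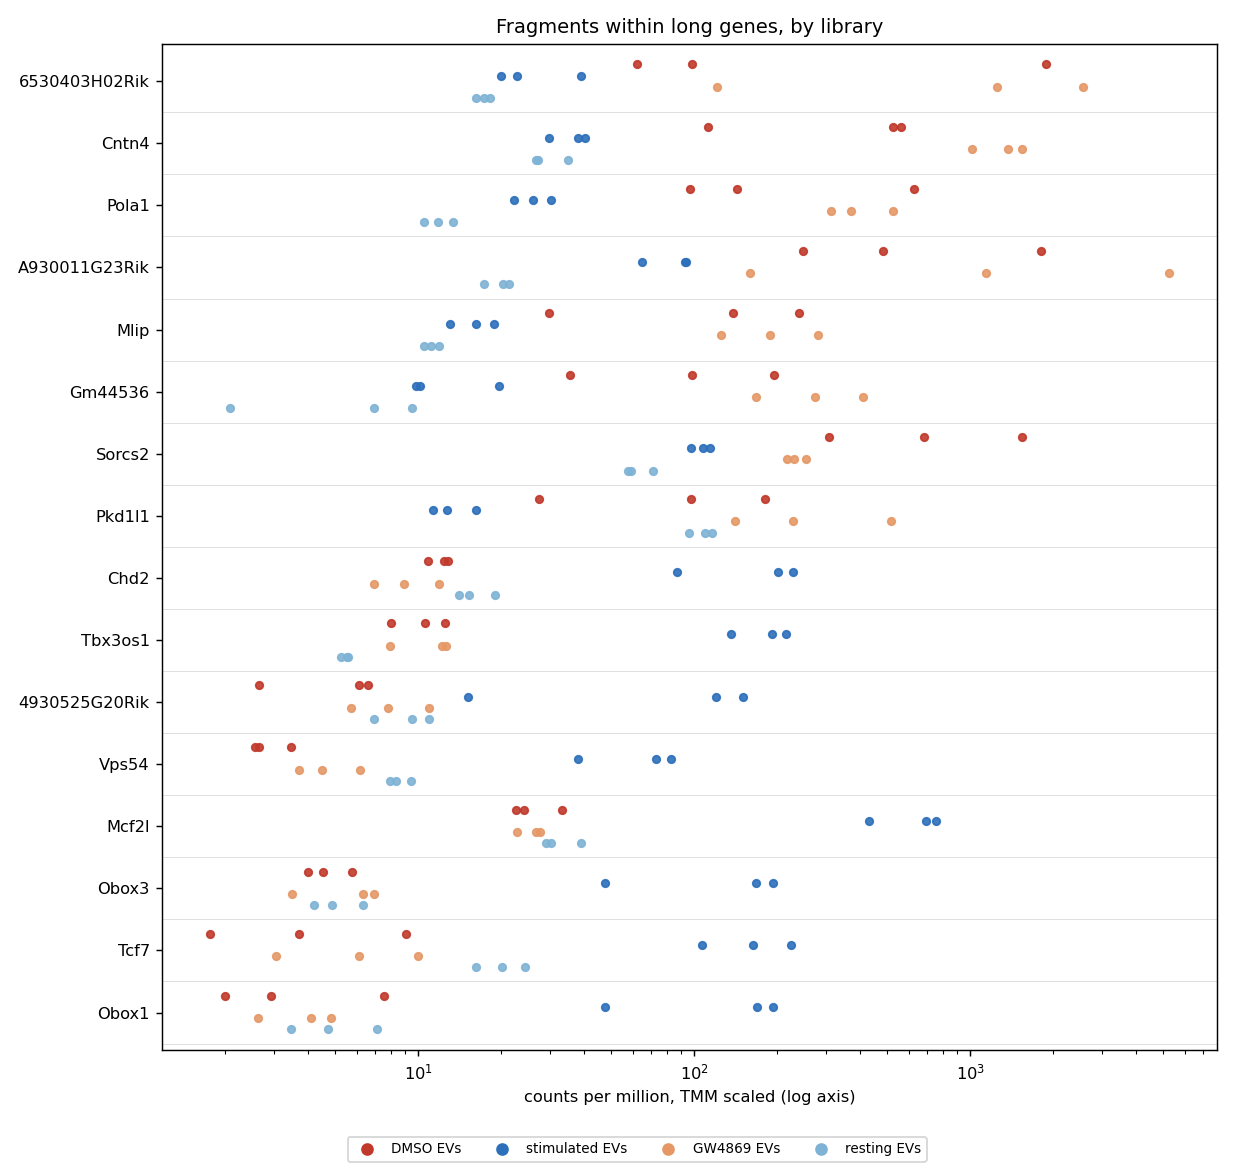
Level of the long genes with the largest folds in each library in CPM on a log axis, with a point for each DMSO, stimulated, GW4869 and resting EV library, downwards in that order. The DMSO EV libraries of 6530403H02Rik lie between 62 and 1876 CPM, and those of Tcf7 between 1.77 and 9.05 CPM against 107 to 225 CPM in the stimulated EVs.

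The fixed gene groups of T cell state held few listed members. Of 3 T cell activation genes, Cd44, the adhesion receptor of activated and memory cells, had 1871, 1118 and 868 CPM in the DMSO EVs and 526, 485 and 489 CPM in the stimulated EVs, without overlap (log2 fold 1.36, SE 0.23, adjusted p = 0.000132). In the cells Cd44 was called lower with DMSO (log2 fold -0.88), and the difference of 2.24 was called (SE 0.33). Myc, the growth regulator, had 15.7, 5.76 and 16 CPM in the DMSO EVs and 44.2, 40 and 20.7 CPM in the stimulated EVs (log2 fold -1.45, SE 0.42, adjusted p = 0.014), and its call was lost in the fit to the 6 EV libraries (adjusted p = 0.068), without DMSO EV replicate 2 (0.05), without stimulated EV replicate 1 (0.0647) or 2 (0.0509) and with factors from the miRNAs (0.121). Top2a was not called (log2 fold 0.51). Of 8 genes of resting T cells, 2 were called lower, Tcf7 as above and Foxo3, a regulator of quiescence, with 27.4, 16.4 and 27.7 CPM in the DMSO EVs and 229, 300 and 57 CPM in the stimulated EVs (log2 fold -3.02, SE 0.4). Lef1, Foxo1, Foxp1, Bach2, Satb1 and Ets1 had log2 folds of -0.39, -0.36, 0.44, -0.17, -0.05 and -0.06 and were not called. Of 27 ribosomal protein genes 5 were called higher and none lower (18.5% against 13.6% over all features, median log2 fold 0.3), and of 7 histone genes none was called.

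Few long genes were called higher in the DMSO cells, and few of those called higher in the DMSO EVs were among them. In the cells 191 of the 2834 were called higher and 660 lower with DMSO. Of the calls in EVs, 48 were higher in both (10.5%, against 24.6% over all features). The share over all features includes nuclear tRNA features, of whose higher calls in EVs 93.2% were shared, so it is no baseline for long genes. The lower calls were shared by 134 (40.1%, against 36.2% over all features). A further 67 of the 456 (70 of 601 over all features) were higher in EVs and lower in cells. That is a smaller part than the 660 lower in cells among all 2834 long genes. Cdk8 and Cmss1 were among the 67. Both are among the 8 most abundant features of the DMSO EVs outside long genes that hold a listed small RNA. Cdk8, of a kinase of the Mediator complex, had 12269, 10602 and 8221 CPM in the DMSO EVs and 6348, 6577 and 6987 CPM in the stimulated EVs (log2 fold 0.64, SE 0.17), and a log2 fold of -1.18 in cells. Cmss1 had 12311, 8657 and 7386 CPM in the DMSO EVs and 5366, 5484 and 5899 CPM in the stimulated EVs (log2 fold 0.76, SE 0.21), and one of -0.99 in cells. The call of Cmss1 in EVs was lost without DMSO EV replicate 1 (adjusted p = 0.0815), and those of both in the fit to the 6 EV libraries (0.0957 for Cdk8 and 0.0809 for Cmss1). In both the lowest DMSO EV library was above the highest stimulated EV library.

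The EVs held the miRNAs of T cells in both groups. Of 11 T cell markers sought, 9 were listed, and Cd4 and Lck were not. Their summed level was 47075 to 98469 CPM in the DMSO EVs and 79343 to 96819 CPM in the stimulated EVs, most of it Mir142, a miRNA of all blood cells, which had 29050, 59303 and 34132 CPM in the DMSO EVs and 45542, 46786 and 49100 CPM in the stimulated EVs and was not called. Cd3e, of the T cell receptor complex, was called lower, with 21, 10.2 and 30 CPM in the DMSO EVs and 38.5, 75.7 and 41.7 CPM in the stimulated EVs (log2 fold -1.32, SE 0.3, adjusted p = 0.00258), a call lost with factors from the miRNAs (0.0693) and in the fit to the 6 EV libraries (0.0778). The marker miRNAs sought for myeloid, liver, muscle and stromal cells had no listed member. None of the EV protein genes sought, among them Cd9, Cd63 and Cd81, was listed. Every listed feature had at least 4 counts in each of the 24 libraries, so a feature that is not listed need not be absent. The erythroid Mir451a averaged 39.5 CPM in the DMSO EVs and 50.4 CPM in the stimulated EVs, and the endothelial and platelet Mir126a averaged 68.2 CPM in the DMSO EVs and 82.6 CPM in the stimulated EVs, and neither was called. Of the epithelial markers, Mir141 and Mir200c were listed, summing to 43.37 to 83.68 CPM in the DMSO EVs and 88.49 to 108.9 CPM in the stimulated EVs, and Mir200c was called lower (log2 fold -0.85), a call lost without DMSO EV replicate 1 (adjusted p = 0.0987) or 3 (0.0528) or stimulated EV replicate 3 (0.0649). Of the neuronal markers, Mir128-1 and Mir128-2 were listed, at 93.4 to 153.2 CPM in the DMSO EVs and 127.7 to 167 CPM in the stimulated EVs in sum, and Mir128-2 was called lower (log2 fold -0.55). That call was lost without any 1 library other than DMSO EV replicate 2 (adjusted p 0.0582 to 0.182), with RLE size factors (0.0612), factors from the miRNAs (0.324) or a replicate block (0.0551), and in the fit to the 6 EV libraries (0.187). The part of other cell types in the results was not tested.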

How the data were processed

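Small RNA libraries of 3 DMSO EV and 3 stimulated EV samples were compared, with the 3 DMSO and 3 stimulated cell samples beside them. Per the submitters' processing notes, the authors aligned reads with Bowtie, and the builds named were GRCm38 and mm10. Of adapter trimming, multiply aligned reads and the counting program, nothing is stated in the labels. The deposited values were whole-number read counts per named feature, 4441 lines per file, the smallest being 4, and were used as deposited after 33 repeated lines were dropped. Names were matched to GENCODE M21 (3500 of 3628 outside the tRNAs).

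edgeR 4.0.16 (R 4.3.3) fitted 1 quasi-likelihood model to all 24 libraries in 8 groups with TMM factors, and Benjamini-Hochberg adjusted p under 0.05 over 4408 features was a call. Its filter at a minimum count of 10 removed no feature. CPM values use TMM factors. Class shares are percents of all counts, tested by exact two-sided permutation tests. DESeq2 1.42.0, other scalings, filters, a replicate block and leaving out each replicate were alternatives. The script was tested on simulated data. The members and lists were chosen with earlier results of these data known. Features were named by size of fold among called features with a mean of at least 20 CPM whose groups did not overlap, the 8 highest and 8 lowest over all and 4 each way per class, with the 8 most abundant and the members of short lists. Names on several lines were left out of the ranks by fold. Long genes that hold a listed small RNA were left out of the ranks by fold and by abundance.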

Additional observations from a re-analysis of the deposited data

Results flagged for a closer look

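Each result here was picked because the fold of DMSO over stimulated differed between EVs and cells in edgeR's test of the difference itself (adjusted p under 0.05), and each value is the log2 fold in EVs minus the log2 fold in cells. The vehicle and the separate tabulation cannot be told apart here either.

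Among long genes, the difference was positive for 6530403H02Rik (4.57), A930011G23Rik (4.16), Sorcs2 (3.92), Cntn4 (3.52), Pola1 (3.11), Mlip (2.96), Gm44536 (2.8), Pkd1l1 (2.64), Cd44 (2.24), Cdk8 (1.82) and Cmss1 (1.75). Of these, Sorcs2, Cd44, Cdk8 and Cmss1 were called higher in the DMSO EVs and lower in the DMSO cells. The difference was negative for Tcf7 (-5.08), Obox1 (-5.01), Mcf2l (-4.82), Vps54 (-4.76), Obox3 (-4.71), 4930525G20Rik (-4.57), Chd2 (-4.47), Tbx3os1 (-3.88) and Foxo3 (-3.14), and none of these 9 genes was called in cells.

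Among miRNAs, the difference was negative for Mir185 (-1.3), Mir200c (-1.22), Mir26a-1 (-1.14), Mir1983 (-1.13), Mir26a-2 (-1.1), Mir146 (-0.84) and Mir342 (-0.83). None of these was called in cells, and Mir146 was not called in EVs either.

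Among tRNA features, it was negative for the 3FR_2 fragment of tRNA-Val-CAC-3-1 (-2), the precursor of tRNA-Ile-TAT-2-1 (-1.21) and the 5_half_up fragment of tRNA-iMet-CAT-1-7 (-1.08), which was higher with DMSO in both EVs and cells.

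Among rRNAs, snoRNAs and Y RNAs, it was positive for Gm24601 (2.16), Rnu3a (1.46), Gm24949 (1.32), Gm23927 (1.26), Snora73b (1.26), Rn18s-rs5 (0.99), Rnu3b2 (0.9) and mt-Rnr1 (0.72), and negative for Rny1 (-0.82). Rn18s-rs5 was called lower in the DMSO cells and was not called in EVs, and Rny1 was called higher in the DMSO cells and was not called in EVs.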

How the results depend on the processing

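Over the alternatives run, the 70 described features that were called gave 938 values with the same call and 161 that lost it, none with the other sign, and 25 of the 70 kept the call in every alternative run on them, though only 49 of the 70 had a mean of at least 50 CPM and entered the alternative with that filter. Among described features not called, Rny1 changed sign, to a log2 fold of -0.17 without DMSO EV replicate 2, the lowest of a range up to 0.37 when 1 library was left out. For EVs, 601 features were higher and 437 lower. Only the 6 EV libraries gave 197 and 152, and the same with a replicate block 125 and 94. A mean of at least 50 CPM left 1509 features and gave 312 and 172. Factors from the miRNAs gave 159 lower. Leaving out 1 library gave 388 to 730 higher and 281 to 542 lower. DESeq2 gave 613 and 407. For cells (523 and 756), factors from the miRNAs gave 225 higher, at least 50 CPM 218 and 331, and leaving out 1 library 334 to 476 higher and 583 to 703 lower. For the difference (572 and 246), factors from the miRNAs gave 1112 and 69, at least 50 CPM 354 and 154, and leaving out 1 library 369 to 786 and 154 to 498. The cause of these changes was not tested, except that fewer features or libraries entered some fits. The nuclear tRNA share differed by -0.0903 percentage points, by -0.224 to 0.159 when 1 library was left out, and by 0.748 as a share of counts outside long genes. Whether the replicate numbers pair the samples is not known. Same-numbered DMSO and stimulated EV libraries deviated together at r = 0.34, -0.07 and -0.2. These are deviations from means of 3 libraries, too few to decide it. A replicate block in the 24-library fit gave 576 higher and 440 lower. Features with a smallest count near 4 are limited by depth.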
